A study of Mus musculus with 8 samples.

Results

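Heat shock proteins are chaperones, proteins that help other proteins fold, keep them from clumping and refold or hand them over for degradation after stress. Their genes were followed here by name as a list of 10 mouse genes, out of 21207 gene symbols that all 8 deposited count matrices of gastrocnemius nuclei share. The list holds the stress-inducible HSP70 genes Hspa1a and Hspa1b, the constitutive HSP70 gene Hspa8, the HSP110 gene Hsph1, the HSP90 gene Hsp90aa1, the HSP40 co-chaperone genes Dnajb1 and Dnaja1, and the small heat shock protein genes Hspb1, Hspb7 and Cryab. All 10 were counted in all 8 matrices. On GRCm38, with Ensembl gene models, the members other than Hspa1a and Hspa1b lie on chromosome 9 (Hspa8, 40800984 to 40810087, and Cryab, 50751325 to 50756636), chromosome 5 (Hsph1, 149614287 to 149636376, and Hspb1, 135887919 to 135889563), chromosome 12 (Hsp90aa1, 110690605 to 110702728), chromosome 8 (Dnajb1, 83608193 to 83612653) and chromosome 4 (Dnaja1, 40722150 to 40737149, and Hspb7, 141420779 to 141425311).

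Under proteotoxic stress the transcription factor HSF1 forms trimers that bind heat shock elements, repeats of the letters GAA and their reverse complement TTC in the promoters of inducible chaperone genes. HSP40 proteins deliver clients to HSP70, HSP110 exchanges the nucleotide that HSP70 holds, and HSP90 matures clients such as kinases and steroid receptors. Small heat shock proteins hold unfolded clients without using ATP. In striated muscle, alpha B-crystallin (the product of Cryab), HSPB7 and HSPB1 associate with the Z-disc and with filament proteins, and slow oxidative fibres are known for high levels of alpha B-crystallin.

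Gastrocnemius, a calf muscle, was taken frozen from C57BL/6 mice of wild type genotype, and single nuclei were sequenced. The Old group (labelled Aging) was 20 months old and the Young group 3 months. The Running group belonged to a model in which mice of 11 months of age then trained on a treadmill for 2 months, in 30 minute sessions at 9 m/min. The untrained Sedentary group came from the same model, in which 11 months was the age at the start of training. Each of the 4 groups had 2 libraries, replicate 1 made on the 10x Genomics platform (the 10x libraries) and replicate 2 from another set (the second set). How many animals each library held was not stated in the sources used here, nor was the sex of these mice, so that p-values measure only the spread between these libraries.

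The matrices held 65280 nuclei, of which 64803 passed the filters of the study, with 4839878 to 44454427 unique molecular identifiers (UMIs, 1 per captured RNA molecule) per library and a median of 909 to 3001 per nucleus. The 10x libraries shared 30 to 46 cell barcodes pairwise, none with the same UMI total, whereas barcodes of the second set were serial names that cannot be compared. Nuclei were clustered and clusters were named from marker genes, and 23.8% to 66.1% of the nuclei of each library were Type IIb-like, led by Myh4, the fast myosin that marks type IIb fibres. Old replicate 2 stood apart, since 62.5% of its nuclei stayed unnamed, as did 19.98% in Sedentary replicate 1. Levels below are in CPM, a gene's UMIs per 1000000 UMIs of all shared genes except 12 mitochondrial and 83 ribosomal protein genes, with 95% intervals that cover counting error only. In summed counts, fewer nuclei of a type and less RNA per nucleus cannot be told apart.

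Promoter sequences show which members carry letters of a heat shock element near their start. RefSeq windows on GRCm38.p6 were given for 7 of the 10 members, and 5 of the 7 (Hspa1a, Hspa1b, Hsph1, Dnaja1 and Hspb1) held a pair of heat shock units, GAANNTTC or TTCNNGAA, within 250 bases upstream of an annotated start. Dnajb1 and Hspb7 held none. For Hsph1 and Dnaja1 the nearest annotated start lay 40 and 318 bases inside the gene model, and their paired units lay inside it too. The same letters stood in 14.5% of 27025 genes. Both patterns are their own reverse complements, so each search covers both strands. Neither 3-unit pattern, GAANNTTCNNGAA or TTCNNGAANNTTC, stood in any of the 7, against 0.514% of genes, and CTANNNNTAG, the core letters of a MEF2 site, stood in none of the 7, against 3.70% of genes. A match describes these letters only and is not shown to be a bound site. Hspa1a, Hsph1 and Dnaja1 are shown here as examples of the surroundings of the pair in 3 branches of the family, 30 bases each, 5′ to 3′ along the gene's strand, with the paired units in capitals.
Hspa1a, chr17:34972242-34972271, minus strand: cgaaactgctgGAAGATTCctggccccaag
Hsph1, chr5:149636351-149636380, minus strand: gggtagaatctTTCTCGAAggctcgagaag
Dnaja1, chr4:40722333-40722362, plus strand: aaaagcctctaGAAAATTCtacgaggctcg

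Hspa1a and Hspa1b are a pair of 1-exon genes on chromosome 17, at 34969190 to 34972156 and 34956436 to 34959238 on the minus strand, 9951 bases apart. Their 250 upstream bases differed at 3 positions, C44T, T47C and T249G (Hspa1a base first, counted from 1 at the 5′ end of the window), an identity of 98.8%. They are printed in full because sequences of the pair are hard to tell apart, with the differing bases in capitals.
Hspa1a, chr17:34972157-34972406, minus strand: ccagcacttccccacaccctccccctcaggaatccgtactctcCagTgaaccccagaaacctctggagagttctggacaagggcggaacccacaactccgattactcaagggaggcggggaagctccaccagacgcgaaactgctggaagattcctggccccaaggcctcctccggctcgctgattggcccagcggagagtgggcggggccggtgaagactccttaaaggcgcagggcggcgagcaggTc
Hspa1b, chr17:34959239-34959488, minus strand: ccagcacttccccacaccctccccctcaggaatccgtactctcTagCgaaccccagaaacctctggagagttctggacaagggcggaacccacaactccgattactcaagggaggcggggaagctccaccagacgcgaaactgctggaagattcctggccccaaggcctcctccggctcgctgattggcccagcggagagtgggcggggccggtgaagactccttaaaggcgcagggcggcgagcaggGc

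Within the transcripts, 49.3% of the 90-base windows of Hspa1a were identical to a stretch of Hspa1b, but none of the last 300 windows before the 3′ end was, where reads of a 3′ assay mostly fall. Counts of the 2 genes are given separately and are uncertain where a read fell further inside. Hspa1a also overlaps Gm20481 by 2225 bases on the opposite strand, a gene that is not among the shared symbols. Hspb1 and Hspb7 follow as the small heat shock protein genes with and without the paired units, which are in capitals.
Hspb1, chr5:135887669-135887918, plus strand: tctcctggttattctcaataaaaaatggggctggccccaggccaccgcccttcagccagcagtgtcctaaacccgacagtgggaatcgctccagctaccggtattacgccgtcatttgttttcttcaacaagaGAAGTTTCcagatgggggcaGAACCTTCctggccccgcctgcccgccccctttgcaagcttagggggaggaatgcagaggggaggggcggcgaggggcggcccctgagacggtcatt
Hspb7, chr4:141420529-141420778, plus strand: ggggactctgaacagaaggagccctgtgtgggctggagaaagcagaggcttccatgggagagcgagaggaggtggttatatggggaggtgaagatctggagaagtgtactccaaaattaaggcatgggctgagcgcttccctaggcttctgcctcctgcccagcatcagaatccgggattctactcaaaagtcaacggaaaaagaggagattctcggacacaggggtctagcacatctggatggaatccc

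The inducible HSP70 genes were counted at low levels in every library. Hspa1a had 3.51 CPM in Old replicate 1 (136 UMIs), 1.14 in Young replicate 1 (45 UMIs), 0.726 in Running replicate 1 and 0.734 in Sedentary replicate 1. In the second set it had 1.61 in Old (8 UMIs), 6.63 in Young (59 UMIs), 1.54 in Running and 0.643 in Sedentary (3 UMIs). The order of Old and Young was therefore turned around between the library sets. Hspa1b had 2.17, 1.82, 0.635 and 0.432 CPM in Old, Young, Running and Sedentary of the 10x libraries, and 2.42, 1.46, 0.420 and 0.643 in the second set, from 3 to 84 UMIs per library. Both Old values of Hspa1b lay above both Young values. The counting intervals of Old over Young nevertheless spanned equality in both sets. They ran from -0.22 to 0.72 on the log2 scale in the 10x libraries and from -0.53 to 1.98 in the second set (12 and 13 UMIs).

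Hspa8, the HSP70 that cells make without stress, was much more strongly counted, with 414 to 2755 UMIs per library. It had 56.6 CPM in Old and 69.8 in Young of the 10x libraries, and 98.7 and 198 in the second set, so that Old lay below Young in both sets. In Running and Sedentary it had 41.8 and 17.9 in the 10x libraries and 165 and 126 in the second set, and Running lay above Sedentary in both. The groups nevertheless overlapped, because all 4 libraries of the second set lay above all 4 of the 10x Genomics platform. Hsph1, the nucleotide exchange factor, had 10.5 to 16.7 CPM in the 10x libraries and 15.9 to 28.3 in the second, with Old above Young in the former (16.7 and 12.7) and below it in the latter (15.9 and 26.2). Its Running and Sedentary values were 11.2 and 10.5 in the 10x libraries and 22.4 and 28.3 in the second set.

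Hsp90aa1, the stress-responsive cytosolic HSP90, had 28.6 CPM in Old and 17.5 in Young of the 10x libraries, and 54.3 and 45.1 in the second set. Running had 19.9 and 47.8 and Sedentary 16.9 and 39.2, in the 10x libraries and the second set respectively. The first-named group of each comparison was therefore higher in both sets, while the sets differed more than the groups. Dnajb1, the HSP40 that is induced together with HSP70, stayed between 1.21 and 4.77 CPM in all libraries, from 11 to 120 UMIs. Dnaja1, the type I HSP40, had 32.6 in Old and 28.1 in Young of the 10x libraries and 20.8 and 20.3 in the second. Its Running and Sedentary values were 27.3 and 16.8 in the 10x libraries and 27.8 and 31.3 in the second set. Unlike Hspa8 and Hsp90aa1, Dnaja1 was lower in the second set than in the 10x libraries for Old and Young and higher for Sedentary. The gene overlaps Smu1 by 608 bases on the other strand.

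Among the small heat shock proteins, Cryab had 93.6 CPM in Old and 33.4 in Young of the 10x libraries, but 150 in Old and 223 in Young of the second set. Running and Sedentary had 33.1 and 28.97 in the 10x libraries and 140 and 114 in the second set. The Cryab gene overlaps Hspb2 by 1030 bases on the opposite strand, and whether counting used the strand was not given in the sources used here. Hspb7 had 30.8 in Old and 4.16 in Young of the 10x libraries, against 22.2 and 36.1 in the second set. Its Running and Sedentary values were 4.24 and 10.6 in the 10x libraries and 27.6 and 10.5 in the second set. Both genes thus had opposite orders of Old and Young in the 2 sets, and Hspb7 also of Running and Sedentary. Hspb1 (HSP27, which binds actin) had 21.6 and 21.5 in Old and Young of the 10x libraries and 9.69 and 22.3 in the second set, and 11.9 and 7.08 in Running and Sedentary of the 10x libraries and 19.6 and 14.6 in the second set.

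**Figure D1:**
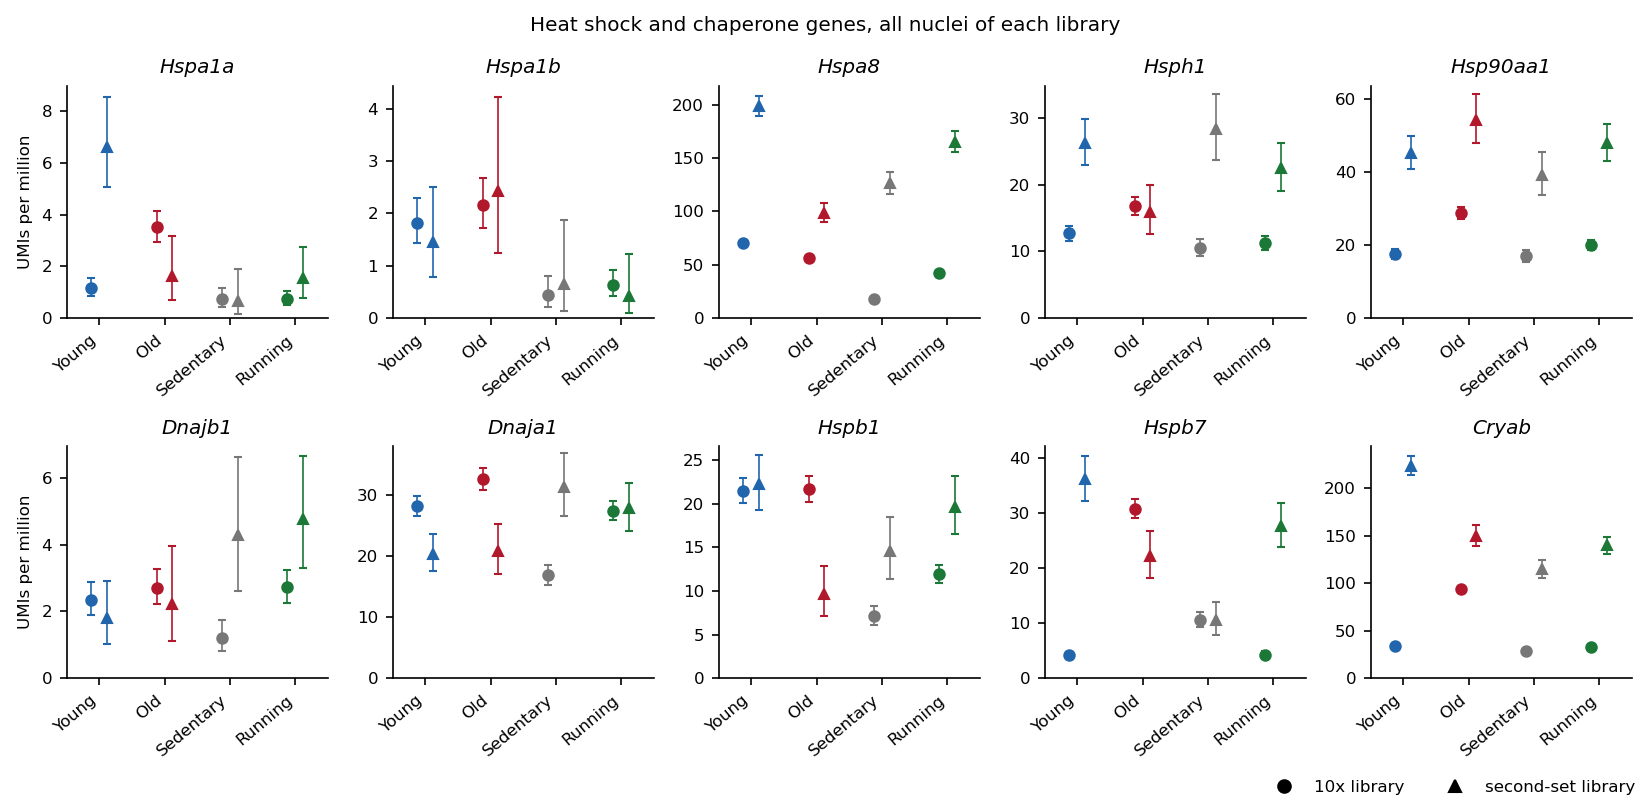
CPM (vertical axes) of the 10 members in each library, with circles for the 10x libraries, triangles for the second set and bars for 95% counting intervals. Hspa8, Hsp90aa1 and Cryab lie higher in all 4 libraries of the second set, and Hspb7 is 30.8 in Old and 4.16 in Young of the 10x libraries but 22.2 and 36.1 in the second set.

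The first comparison asked whether these genes differ between old and young muscle. None of the 10 members passed the threshold of an adjusted p of 0.05 in edgeR's quasi-likelihood test on library sums with the library set as a term, in which 0% of all 20324 genes tested were called, nor in DESeq2. At an unadjusted p under 0.05 there was no member and 557 of all genes. The estimates for Old over Young, on the log2 scale, were below 0 for 6 members and above 0 for 4, with a median of -0.16, against 0.19 over all genes. Hspa8 had -0.92 (SE 0.58, 95% interval -2.27 to 0.43, adjusted p = 0.693) and Hspb1 -0.75 (SE 0.68, adjusted p = 0.693). Hspb7 had 0.83, with an SE of 1.02 and an interval from -1.53 to 3.19, and Cryab 0.19 with an SE of 0.59. The remaining 6 members lay between -0.50 (Hspa1a) and 0.11 (Hsp90aa1). Without Old replicate 2, Hspa8, Hspb1, Hspb7 and Cryab were estimated at -0.23, 0.063, 2.08 and 1.06, and without Old replicate 1 at -2.07, -2.23, -0.95 and -1.07.

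Within the library sets, 5 of the 10 members had the same direction of Old over Young in both. Hspa1b, Hsp90aa1, Dnajb1 and Dnaja1 were higher in Old, by 0.03 to 0.73 on the log2 scale, and Hspa8 was lower, by -0.30 in the 10x libraries and -1.01 in the second set. For comparison, the median of 15034 genes was 0.20 in the 10x libraries and 0.29 in the second, with 69.2% and 60.8% of them higher in Old. The share of all genes with the same direction in both sets was not counted. Dnajb1 and Dnaja1 were estimated at -0.10 and -0.22 in the fit, which scales libraries by TMM and not by their totals, so their direction depended on the scaling. Opposite directions were found for Hspa1a, which was 3.07-fold in Old relative to Young in the 10x libraries and 0.244-fold in the second set (8 UMIs in Old). Hspb7 was 7.41-fold higher in Old than in Young in the 10x libraries and 0.615-fold in the second set. Cryab was 2.80-fold higher in the 10x libraries and 0.670-fold in the second set.

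The second comparison asked whether the genes differ with treadmill running. No member was called in the same fit (0% of 20324 genes were called, and 98 genes but no member had an unadjusted p under 0.05), nor with DESeq2. Of the 10 estimates for Running over Sedentary, 9 were above 0, with a median of 0.27 against -0.04 over all genes, of which 46.5% were above 0. Hspa8 had the largest estimate, 0.70 (SE 0.58), which was 0.016 without Sedentary replicate 1 and 1.76 without Sedentary replicate 2. Cryab had 0.26, Hsp90aa1 0.28, Dnajb1 0.52 and Hspb1 0.56, and these 4 genes and Hspa8 were higher in Running in both library sets. For Hspa8 that was 2.34-fold in the 10x libraries and 1.31-fold in the second. Of 15034 genes, 53.6% were higher in Running in the 10x libraries and 52.7% in the second set. The share higher in both was not counted. Hspb7 was estimated at 0.11 and had opposite directions, a log2 difference of -1.32 in the 10x libraries and 1.39 in the second. With 2 libraries a group, an exact permutation test cannot go below a two-sided p of 0.333.

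**Figure D2:**
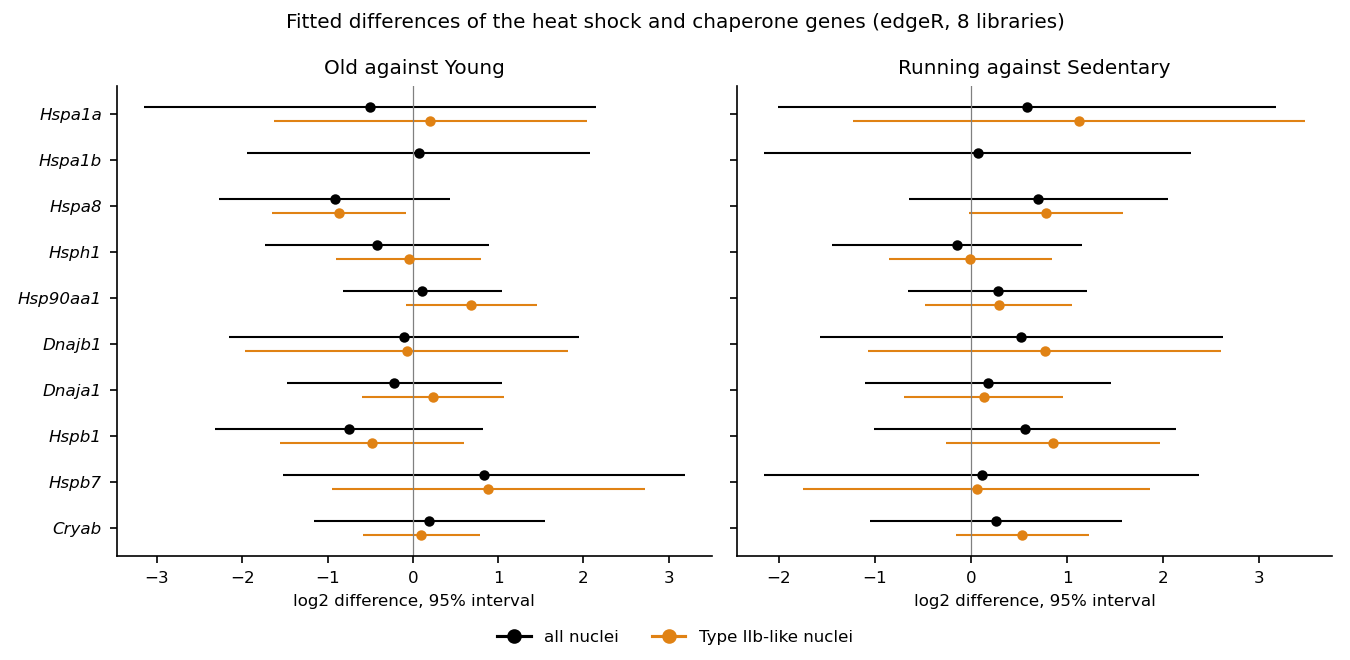
Log2 differences of the 10 members with 95% intervals from edgeR, Old over Young and Running over Sedentary, in all nuclei (black) and in Type IIb-like nuclei (orange, Hspa1b not tested). No member reached an adjusted p of 0.05, and 9 of 10 estimates in all nuclei lie above 0 for Running over Sedentary, against 4 of 10 for Old over Young.

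Within each compared pair of libraries, the direction of Hspb7 was that of the amount of slow fibre RNA. The summed level of 8 slow fibre markers (Myh7, Tpm3, Tnnc1, Tnni1, Tnnt1, Myl3, Myl2 and Atp2a2) was 572 CPM in Old and 105 in Young of the 10x libraries, and 1872 in Old and 4234 in Young of the second set. In Running and Sedentary the markers summed to 98.0 and 901 in the 10x libraries and 997 and 601 in the second set. In each of these 4 contrasts Hspb7 was higher in the library with more slow fibre RNA, whereas Cryab was higher in that library in 3 of the 4. Between comparisons this order did not always hold. Sedentary replicate 1 had more slow fibre RNA than Old replicate 1 (901 and 572) but less Hspb7 (10.6 and 30.8). Old replicate 2 had more than Running replicate 2 (1872 and 997) but less Hspb7 (22.2 and 27.6). Slow-like nuclei made up 1.28% of Old replicate 1 and 0.008% of Young replicate 1, and 0.054% of Running replicate 1 and 3.65% of Sedentary replicate 1. The part of fibre composition in the whole-muscle values was not tested.

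**Figure D3:**
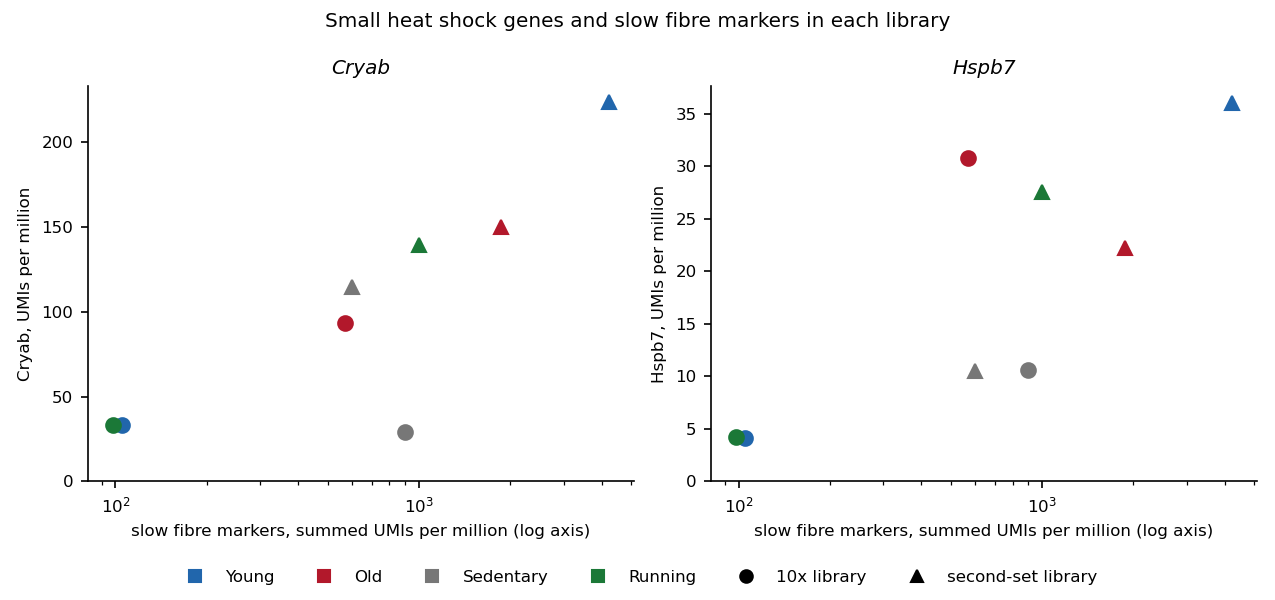
Cryab and Hspb7 (CPM, vertical axes) against the summed CPM of 8 slow fibre markers (horizontal axis, log scale) in each of the 8 libraries. The marker sum spans 98.0 in Running replicate 1 to 4234 in Young replicate 2, and in each set Hspb7 lies higher in the library of a compared pair with the larger sum.

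To set levels beside fibre type, myonuclei with at least 3 UMIs of Myh1, Myh2, Myh4 and Myh7 were typed by the myosin gene that gave 70% or more of them, Myh4 for IIb, Myh1 for IIx, Myh2 for IIa and Myh7 for slow fibres. These values are a description of each library. The small heat shock protein genes and, on far fewer molecules, Hspa1a were higher in IIa than in IIb nuclei. In Old replicate 1, Cryab had 43.2 CPM in 3684 IIb nuclei, 158 in 229 IIx nuclei, 502 in 553 IIa nuclei and 421 in 131 slow nuclei. In Young replicate 1 it had 25.2 in IIb, 155 in IIx and 292 in IIa nuclei, of which there were 6088, 124 and 49. Cryab in IIa nuclei was above IIb nuclei in 7 of 7 libraries, by 2.11-fold to 11.6-fold with a median of 4.06-fold, and the counting interval excluded equality in all 7. In slow nuclei it was 8.94-fold and 9.74-fold above IIb in the 2 libraries that could be used.

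Cryab levels also differed between libraries within one fibre type. IIa nuclei had 1147 CPM in Old and 345 in Young of the second set, 115 in Running and 55.0 in Sedentary of the 10x libraries, and 350 in Sedentary of the second set. IIb nuclei had 146 in Old and 163 in Young of the second set, 28.4 in Running and 14.9 in Sedentary of the 10x libraries, and 126 and 103 in Running and Sedentary of the second set. Old IIa nuclei were thus higher than Young IIa nuclei in both sets, although Old replicate 2 held only 25 of them and the difference was not tested.

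The share of nuclei with a Cryab UMI was also lower in IIb than in IIa and slow nuclei. In Old replicate 1 it was 15.2% of IIb, 70.3% of IIa and 71.0% of slow nuclei, at median depths of 3696, 3725 and 4144 UMIs, and 2.42%, 20.6% and 16.03% after every nucleus was thinned to 500 UMIs. Macrophage-like nuclei, which should not make Cryab, had a UMI in 9.22% at a median depth of 2327 UMIs (1.92% thinned), so the thinned IIb share lay close to that of macrophage-like nuclei. Cryab in Type IIb-like nuclei, 41.0 CPM, was likewise near the 39.1 of macrophage-like nuclei in that library. At these depths a level of Cryab in IIb nuclei of the 10x libraries cannot be told apart from free RNA of other fibres.

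Cryab in IIx nuclei was above IIb nuclei in 5 of 7 libraries, with ratios of 0.469-fold to 6.13-fold and a median of 2.02-fold. Hspb7 was also higher in IIa than in IIb nuclei. In Old replicate 1 it had 12.5 CPM in IIb, 75.3 in IIx, 164 in IIa and 119 in slow nuclei, and in Young replicate 1 it had 1.66, 45.2 and 50.9 in IIb, IIx and IIa nuclei. Old replicate 2 had 10.1, 69.7 and 121 and Young replicate 2 had 18.5, 54.6 and 84.8 in IIb, IIx and IIa nuclei. IIa nuclei were above IIb nuclei in 7 of 7 libraries (3.26-fold to 30.6-fold, median 10.8-fold, 6 of 7 counting intervals), and IIx nuclei in 6 of 6 (2.95-fold to 27.2-fold). Hspb1 showed the same direction with smaller ratios, 17.3 in IIb, 32.4 in IIx, 63.4 in IIa and 42.1 in slow nuclei of Old replicate 1. Over 6 libraries its IIa level was 1.22-fold to 3.67-fold that of IIb, with 3 counting intervals above equality.

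Among the other members, Hspa8 in IIa nuclei was 0.685-fold to 2.18-fold its IIb level (median 1.57-fold, above in 6 of 7 libraries). Hsph1 and Hsp90aa1 had a median ratio of 0.98 each and lay above IIb in 3 of 6 libraries, and Dnaja1 had a median ratio of 0.70 and lay above in 2 of 6. Hspa1a had 31 UMIs in the IIa nuclei of Old replicate 1 (13.7 CPM) and 16 UMIs in its far more numerous IIb nuclei (1.06 CPM). Its IIa level was 6.32-fold to 16.7-fold its IIb level in the 4 libraries with a ratio (median 13.1-fold), and all 4 counting intervals lay above equality, although 3 of these libraries had only 2 to 4 UMIs in IIa nuclei and 3 further libraries had none. In slow nuclei, with 7 UMIs in each of 2 libraries, Hspa1a was 11.6-fold above IIb in Old replicate 1 and, against 1 UMI in IIb nuclei, 76.1-fold in Sedentary replicate 1, where the counting interval ran from 3.29 to 11.7 on the log2 scale. Bag3, the co-chaperone that links HSP70 to HSPB8 in muscle, was higher in IIa than in IIb nuclei in 7 of 7 libraries, by 2.41-fold to 4.79-fold, whereas Hsf1 was higher in 1 of 5.

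**Figure D4:**
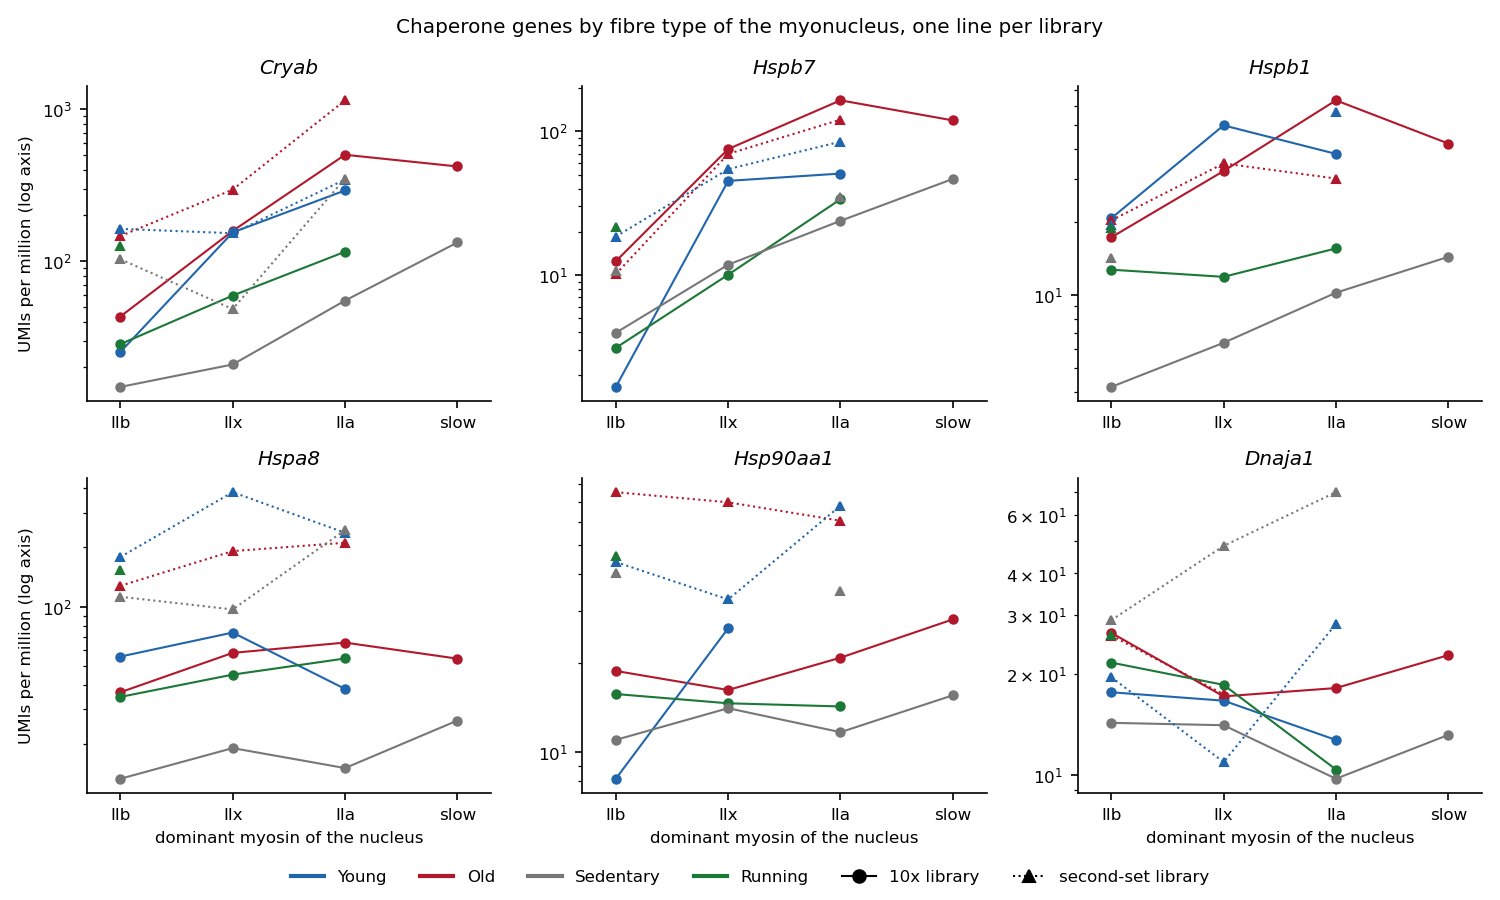
CPM (vertical axes, log scale) of Cryab, Hspb7, Hspb1, Hspa8, Hsp90aa1 and Dnaja1 in myonuclei typed as IIb, IIx, IIa or slow by their dominant myosin gene, 1 line per library. Cryab and Hspb7 are higher in IIa than in IIb nuclei in all 7 libraries with values, by medians of 4.06-fold and 10.8-fold, while Hsp90aa1 and Dnaja1 have medians of 0.98 and 0.70.

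Levels of the folding machinery in other classes were set against Type IIb-like nuclei. By median these ranked at or near the lowest of the 10x classes for Hspa8, Hsp90aa1 and Dnaja1 (ranks 17, 16 and 16). Type IIb-like nuclei had ranks 4, 9 and 8 in the second set, where fewer classes were named. Slow-like fibre nuclei also lay above them, in 6 of 6 libraries for Hspa8 (1.39-fold to 3.06-fold) and for Hsp90aa1 (1.36-fold to 1.89-fold), and in 2 of 6 for Dnaja1. Hsp90aa1 had 86.8, 71.0, 73.9 and 39.2 CPM in muscle stem cell-like nuclei of Old, Young, Running and Sedentary in the 10x libraries, against 18.4, 8.07, 14.8 and 10.7 in Type IIb-like nuclei. That was 3.66-fold to 8.80-fold, with all 4 counting intervals above equality. Hspa8 was above its Type IIb-like level in endothelial-like nuclei of 6 of 6 libraries (2.09-fold to 4.33-fold), in macrophage-like nuclei of 4 of 4 (2.18-fold to 3.69-fold) and in muscle stem cell-like nuclei of 4 of 4 (1.54-fold to 3.15-fold). Dnaja1 had 57.3, 84.8, 62.7 and 35.4 in endothelial-like nuclei of Old, Young, Running and Sedentary of the 10x libraries, against 26.5, 17.3, 21.3 and 15.9 in Type IIb-like nuclei, but in the second set it was 1.85-fold its Type IIb-like level in Running and 0.458-fold in Sedentary, so that it was above in 5 of 6 libraries. Hspb1 was above its Type IIb-like level in endothelial-like nuclei of 6 of 6 libraries, with a median of 2.09-fold.

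Hspa1a and Hspa1b were also lower in Type IIb-like nuclei than in several other classes, as far as their counts allow. Hspa1b had 5.02, 6.37, 6.24 and 4.95 CPM in mural-like nuclei (pericytes and smooth muscle) of Old, Young, Running and Sedentary in the 10x libraries, and 0.05 to 0.74 in Type IIb-like nuclei of the same libraries. The counting interval lay above equality in only 2 of these 4 libraries. Each whole library held just 10 to 84 Hspa1b UMIs, so the mural-like levels rest on very few molecules. In fibro-adipogenic progenitor-like nuclei, the stromal cells of muscle, Hspa1a was above its Type IIb-like level in 4 of 4 libraries with a ratio (4.48-fold to 11.97-fold). There 3 of 4 counting intervals lay above equality, and 2 further libraries, both of the second set, had no Hspa1a UMI in this class. In slow-like nuclei Hspa1a was above its Type IIb-like level in 3 of 3 libraries with a ratio (5.66-fold to 62.8-fold, from 7 to 25 UMIs, the highest against 1 UMI in Type IIb-like nuclei), while 3 further libraries had no UMI there. Cryab was above its Type IIb-like level in slow-like nuclei of 6 of 6 libraries (2.05-fold to 9.73-fold) and Hspb7 in 6 of 6 (1.49-fold to 14.0-fold). Outside fibres, Cryab was above that level in endothelial-like nuclei of 6 of 6 libraries (1.12-fold to 2.25-fold). It was above in Schwann cell-like nuclei of 2 of 2 libraries and in adipocyte-like nuclei of 0 of 5. In Type IIa/IIx-like clusters Cryab lay above Type IIb-like nuclei in 6 of 8 libraries and below it in Old and Young of the second set (116 against 194 and 109 against 212), although IIa nuclei typed by their own myosin lay above in both of these libraries.

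**Figure D5:**
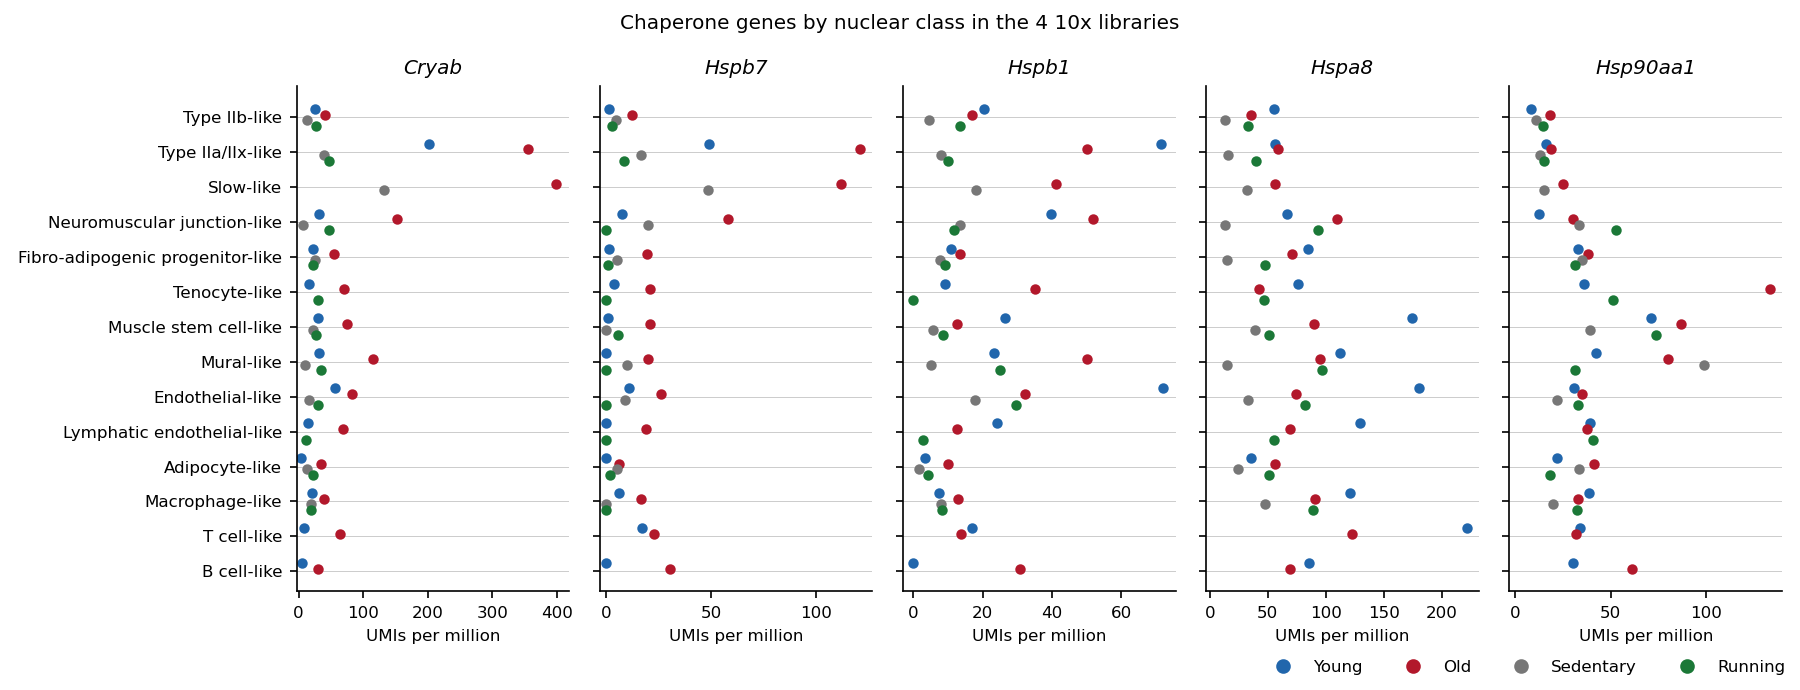
CPM of Cryab, Hspb7, Hspb1, Hspa8 and Hsp90aa1 in 14 classes of nuclei named from markers, in the 4 10x libraries. Schwann cell-like and myotendinous junction-like nuclei are not drawn. Cryab and Hspb7 are highest in slow-like and Type IIa/IIx-like nuclei of Old replicate 1 (399 and 356 for Cryab), and Hsp90aa1 in muscle stem cell-like nuclei is 39.2 to 86.8 against 8.07 to 18.4 in Type IIb-like nuclei.

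Members were then compared between groups within a class, so that shares of fibre types weigh less. In Type IIb-like nuclei no member passed the test in either comparison (0% of 16896 genes called in each, 669 and 235 genes with an unadjusted p under 0.05, no member called by DESeq2). Hspa8 had 35.7 CPM in Old and 55.5 in Young of the 10x libraries and 133 and 219 in the second set, a log2 estimate of -0.86 (SE 0.34, adjusted p = 0.933, edgeR). It was the single member with an unadjusted p under 0.05 there. Hsp90aa1 pointed the other way, with 18.4 and 8.07 in the 10x libraries and 76.9 and 49.8 in the second set (0.69, SE 0.33, adjusted p = 0.933, edgeR). Cryab was estimated at 0.10 for Old over Young and Hspb7 at 0.89, with 12.3 and 1.60 CPM in the 10x libraries and 20.5 and 30.02 in the second.

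The Type IIb-like nuclei compared in the 10x libraries came from different clusters. Of those of Old replicate 1, 3364 were in a cluster led by Ostn and Mylk4 that held 99 nuclei of Young replicate 1, while 3070 and 2788 nuclei of Young replicate 1 were in other clusters that held 195 and 85 of Old. In Running and Sedentary of the 10x libraries, 2680 and 2373 nuclei of Running lay in clusters with 121 and 275 of Sedentary, and 1617 and 1322 of Sedentary in clusters with 214 and 22 of Running. The Type IIa/IIx-like nuclei of Running were mostly in a cluster of 1978 with 348 of Sedentary, which had 1127 and 889 in clusters with 167 and 11 of Running. In the second set, 844 Type IIb-like nuclei of Old lay in a cluster with 604 of Young, and 971 of Young in a cluster with 54 of Old. The Hspb7 difference of the 10x libraries was not particular to fibres. Hspb7 had 19.3 CPM in Old and 1.37 in Young in fibro-adipogenic progenitor-like nuclei, 16.5 and 6.24 in those like macrophages and 26.1 and 10.8 in those like endothelium, and the part of free RNA from fibres in these values was not tested.

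With running, 8 of the 9 members tested in Type IIb-like nuclei had estimates above 0, with a median of 0.54 against 0.0046 over all genes. Hspa8 had 32.9 CPM in Running and 12.97 in Sedentary of the 10x libraries and 150 and 109 in the second set (log2 0.78, SE 0.35). Hspb1 had 13.6 and 4.62 and 19.1 and 14.3 (log2 0.85, SE 0.48), and Cryab 26.3 and 13.9 and 119 and 100.1 (log2 0.54, SE 0.30). Cryab, Hspb1, Hspa8, Hsp90aa1, Dnajb1 and Hspa1a were higher in Running in both sets. The share of all genes higher in both sets in these nuclei was not counted. The difference of Hspa8 in the 10x libraries was of like size in other classes, 40.2 and 15.5 CPM in Type IIa/IIx-like nuclei, 47.2 and 15.3 in fibro-adipogenic progenitor-like and 82.6 and 33.2 in endothelial-like ones. In the second set it was 144 and 183 in fibro-adipogenic progenitor-like and 343 and 473 in endothelial-like nuclei, the opposite direction. Median UMIs per nucleus were also higher in Running than in Sedentary in both sets (2805 and 1664, 1400.5 and 909), and the part of depth in these values was not tested.

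In Type IIa/IIx-like nuclei none of 7 members tested was called (0% of 12336 genes in each comparison, 450 and 259 genes with an unadjusted p under 0.05, no member by DESeq2). For Old over Young, Hspb7 was estimated at 1.15 and Cryab at 0.71, with Cryab at 356 in Old and 202 in Young of the 10x libraries and 116 and 109 in the second. For Running over Sedentary, Hspa8 was estimated at 0.77 (SE 0.54), and at 1.96 without Sedentary replicate 2, which left that group 1 library. No member was called in slow-like nuclei either, where 9 members and 9175 genes were tested (0% called in each comparison, 126 and 172 genes under an unadjusted 0.05). There Hspb7 had 288 CPM in Old and 123 in Young of the second set, and 171 (28 UMIs) in Running and 13.7 (1 UMI) in Sedentary.

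The remaining classes with enough nuclei added no called member. Neuromuscular junction-like nuclei tested 2 members of 3345 genes (0% called in each comparison, 119 and 86 genes under an unadjusted 0.05) and myotendinous junction-like nuclei, at the ends of fibres, 6 members of 6160 genes for running (0% called, 322 under an unadjusted 0.05). In the latter, Cryab had 120 CPM in Running and 60.2 in Sedentary of the 10x libraries and 200 and 127 in the second set, a log2 estimate of 0.84 (SE 0.35, adjusted p = 0.890, edgeR). In fibro-adipogenic progenitor-like nuclei 0 of 10 members and 0.135% of genes were called with running, with Hspa8 at 0.74 (SE 0.41). In endothelial-like nuclei 0 of 7 members and 0.0203% of genes were called, with Dnaja1 at 0.97 (SE 0.59). DESeq2 called no member in any of these classes.

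Single nuclei showed how the counts were spread. The largest number in 1 nucleus was 41 UMIs for Hspa8 and 28 for Cryab, both in Young replicate 2, and 7 for Hspa1a. Hspb7 was found more often in nuclei with Cryab in most libraries: in Old replicate 1, 20.5% of 2131 nuclei with Cryab also had Hspb7, against 5.15% of nuclei without it (median depth 3490 and 2646 UMIs). The same held in Young replicate 1 (5.17% and 0.731%), Old replicate 2 (7.33% and 1.33%) and Young replicate 2 (12.8% and 3.03%). Running replicate 1 (3.29% and 1.11%), Sedentary replicate 1 (6.72% and 1.96%) and Running replicate 2 (6.40% and 3.28%) went the same way. Sedentary replicate 2 showed almost no difference (1.11% and 1.06%). Median depth was higher in nuclei with Cryab in all 8 libraries, and the part of depth was not tested. Over 51 library and class sums of the 10x libraries, levels of Hspb7 and Cryab correlated with Pearson's r of 0.67, Hspa8 and Dnaja1 with 0.68, Hspb1 and Cryab with 0.61, and Hspa1a and Hspa1b with 0.51. These points share libraries and free RNA, and the values are descriptions.

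Genes outside the list were ranked by how closely they followed the summed log2 level of Hspa1a, Hspa1b, Hsph1, Hsp90aa1, Dnajb1 and Dnaja1 over the same 51 points from 4 libraries and 16 classes. Of 4092 genes considered, Abi2 (r 0.676), S100a6 (0.675), Asap2 (0.670), Golim4 (0.668) and Serping1 (0.662) came first. The summed level correlated with the log2 UMI total of the points with an r of -0.19.

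The wider chaperone network was followed with 89 genes in 8 lists, none of which was called in either comparison. For Old over Young, 13 estimates were above 0 and 76 below, with a median of -0.35 against 0.19 over all genes, and 1 gene had an unadjusted p under 0.05. That gene was Pfdn1, a subunit of prefoldin, which hands actin and tubulin to the chaperonin TRiC. It had 55.2 CPM in Old and 84.3 in Young of the 10x libraries and 59.1 and 81.5 in the second set (log2 -0.94, SE 0.34, adjusted p = 0.693, edgeR). None of 14 TRiC and prefoldin genes, none of 9 mitochondrial chaperone genes and none of the other 4 small heat shock protein genes was estimated above 0. Of 14 genes of HSP90 and its co-chaperones, 1 was. Levels in CPM within the sets did not follow this as a whole, with medians over the 89 genes of 0.23 in the 10x libraries and -0.22 in the second, and 35 of 89 with the same direction in both.

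That 1 HSP90 co-chaperone was Fkbp5, an immunophilin induced by glucocorticoids, which had 125 in Old and 56.6 in Young of the 10x libraries and 142 and 76.5 in the second set (log2 0.61, SE 0.49). The HSP40 genes Dnajb5 (log2 -1.09, with 29.99 and 39.1 and then 26.0 and 63.8 CPM) and Dnajb4 (log2 -0.75, with 70.8 and 84.2 and then 44.2 and 64.6) were lower in Old in both sets. With running, 62 of the 89 estimates were above 0 (median 0.11). Among them were 14 of 16 endoplasmic reticulum chaperones, 11 of 14 HSP90 and co-chaperone genes and 4 of 4 further small heat shock proteins. In CPM within the sets the medians over the 89 genes were 0.22 in the 10x libraries and 0.040 in the second set, with 47 of 89 in the same direction in both, and those of the endoplasmic reticulum chaperones 0.46 and -0.0060, with 6 of 16. Hspa5, the HSP70 of the endoplasmic reticulum known as BiP, had 64.7 CPM in Running and 28.9 in Sedentary of the 10x libraries and 85.6 and 67.8 in the second set (log2 0.68, SE 0.56). Hspb8 had 66.6 and 64.6 and then 206 and 114 (log2 0.47), and Dnajb5 50.8 and 27.4 and then 100.1 and 81.5 (log2 0.54), while Fkbp5 (-0.45), Sil1 (-0.27) and Hsf2 (-0.30) had estimates below 0. Fkbp5 had opposite directions in the sets, with 79.5 CPM in Running and 56.8 in Sedentary of the 10x libraries and 46.5 and 119.9 in the second, whereas Sil1 and Hsf2 were lower in Running in both. Hsf1 itself was at 33.0, 40.1, 34.4 and 28.3 CPM in Old, Young, Running and Sedentary of the 10x libraries and 18.2, 18.8, 25.1 and 24.9 in the second set, with estimates of -0.56 and 0.14, and Bag3 had -0.23 and -0.03.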

How the data were processed

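The authors deposited 8 filtered matrices of raw UMI counts per gene and nucleus, 1 per library. Per the labels and the submitters' processing notes, reads of the 10x set were counted with Cell Ranger 6.1.2 on mm10, and Seurat 4.1.1 was used downstream. The second set was counted with another pipeline, and whether intronic reads or the strand were used was not given in the sources used here. No column of another sample was used. Groups were taken from the labels, which give no replicate numbers, and replicate 1 is the 10x library of each group.

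The filters of the study kept nuclei in which over 200 but less than 6000 genes were found and mitochondrial UMIs stayed below 6%. Doublets stayed in, and Scrublet marked 4.13% to 5.49% of nuclei in the 10x libraries of Old, Young and Running and under 0.05% in the other 5, where it had not worked. Nuclei were clustered per comparison and library set with scanpy 1.11.5 and leidenalg 0.10.2, on 30 principal components of 2000 variable genes, with 20 neighbours and a resolution of 1.0. The members and chaperone lists were kept out of the clustering genes. Clusters were named from 17 marker lists, and -like means like that class by these markers. Limits for giving a name were chosen once clusters had been looked at. Clusters stayed unnamed with fewer than 3 markers detected, a second class at a like level, or leading genes over 300 kb in median length.

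UMI totals of each gene were formed for whole libraries and for every class that had at least 20 nuclei in a library. These totals were tested with edgeR 4.0.16 under R 4.3.3 (TMM scaling, genes kept by filterByExpr, quasi-likelihood F-test, Benjamini-Hochberg adjustment over all genes tested, threshold 0.05) in 1 fit over the 8 libraries whose terms were group and library set, which left 3 residual degrees of freedom (1 for slow-like, endothelial-like, myotendinous junction-like and fibro-adipogenic progenitor-like nuclei). The common dispersion was 0.294 for all nuclei, and the test was checked on simulated counts. DESeq2 1.42.0 and the other alternatives are described with their effects. Intervals of levels are exact Poisson intervals, and ratios within a library or set carry no test. Thinned shares use 500 UMIs drawn from each nucleus, leaving out 0 to 25 shallower nuclei per library.

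The 10 members and the lists were chosen with earlier results of these data known. Named genes were all members, Hsf1 and Bag3, per comparison up to 3 list genes in each direction with the smallest unadjusted p and a mean of at least 50 CPM, and the 5 genes most like the inducible members. Promoter windows came from RefSeq on GRCm38.p6 and other coordinates from GENCODE on GRCm38.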

Additional observations from a re-analysis of the deposited data

How the results depend on the processing

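No member was called in either comparison of all nuclei under DESeq2, other scaling (RLE), no low-count filter, no term for the library set, only the libraries of the comparison, mitochondrial and ribosomal protein genes kept, all deposited nuclei, thinning, named clusters only, the 6% highest doublet scores left out, or any library left out, nor within classes under those of them that were run there or with clustering resolution 0.5. The exception was Hspa8 in Type IIa/IIx-like nuclei of Running without Sedentary replicate 2, so that leaving out a library gave 0 to 1 called members there and 0 otherwise. A group left with 1 library is then assumed to vary like the others. Within classes, calls over all genes for running were also highest without Sedentary replicate 2. The labels give no replicate numbers, and the library set, in which each group has 1 library, served as the block in the fit reported. Fibre type and class ratios of Cryab, Hspb7 and Hspb1 moved by less than the spread between libraries under stricter typing, thinning or resolution 0.5. Under stricter typing the IIa over IIb medians were 4.52, 7.66 and 2.33 over 3 libraries, all of the 10x set. With the main typing they were 4.06, 10.8 and 2.14. The spread between libraries was wide (3.26-fold to 30.6-fold for Hspb7), so a sizeable shift could pass this comparison.

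Of 44 estimates of members, 14 kept their direction under every setting and 30 changed it when 1 library was left out. For Old over Young in all nuclei the log2 estimates then ranged from -2.22 to 0.87 for Hspa1a, -0.10 to 0.22 for Hspa1b, -1.50 to 0.27 for Hsph1, -0.41 to 0.49 for Hsp90aa1, -1.13 to 0.61 for Dnajb1, -1.05 to 0.29 for Dnaja1, -2.23 to 0.063 for Hspb1, -0.95 to 2.09 for Hspb7 and -1.07 to 1.06 for Cryab. In Type IIb-like nuclei they ranged from -0.24 to 0.47 for Hspa1a, -0.50 to 0.21 for Hsph1, -0.84 to 0.81 for Dnajb1, -0.35 to 0.54 for Dnaja1, -0.32 to 2.35 for Hspb7 and -0.31 to 0.36 for Cryab, and in Type IIa/IIx-like nuclei from -1.77 to 0.55 for Hspa8, -1.09 to 1.82 for Hspb7 and -1.09 to 1.57 for Cryab. For Running over Sedentary in all nuclei the ranges were -0.57 to 0.60 for Hspa1b, -0.63 to 0.49 for Hsph1, -0.32 to 1.81 for Dnajb1, -0.49 to 1.13 for Dnaja1, -0.052 to 1.45 for Hspb1 and -1.01 to 1.05 for Hspb7. In Type IIb-like nuclei they were -0.12 to 0.12 for Hsph1, -0.014 to 0.56 for Hsp90aa1, -0.25 to 0.58 for Dnaja1 and -0.56 to 0.82 for Hspb7, and in Type IIa/IIx-like nuclei -1.35 to 1.87 for Hspb7 and -0.97 to 1.41 for Cryab. Hspa8 kept its direction, with -2.07 to -0.23 for Old over Young and 0.016 to 1.76 for Running over Sedentary in all nuclei.

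Other settings turned 14 estimates, for which the cause was not tested. For Old over Young in all nuclei these were Hspa1a when thinned (0.088) and with named clusters only (0.16), Hspa1b with all deposited nuclei (-0.13), Dnajb1 when thinned (0.25), and Hsp90aa1 (-0.035) and Cryab (-0.48) without the library set term. In Type IIb-like nuclei they were Hspa1a (-0.020) and Cryab (-0.17) without that term and Hsph1 (0.21) and Dnajb1 (0.052) at resolution 0.5. For Running over Sedentary they were Hspa1b with named clusters only (-0.020) and without doublets (-0.13), Dnaja1 when thinned (-0.039), Hspb7 when thinned (-0.031) and with named clusters only (-0.18), Hsph1 in Type IIb-like nuclei without a filter (0.0068), with only the compared libraries (0.0017) and without doublets (0.019), and Hspb7 in Type IIa/IIx-like nuclei with only the compared libraries (-0.069).

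Counts over all genes depended more on the settings. With only the libraries of the comparison 4 genes were called for age and 81 for running in all nuclei, and without Sedentary replicate 2 it was 4 and 423, and without Sedentary replicate 1 8 for age. Within classes 0 genes were called for age and 23 for running, against 19 and 0 with DESeq2, 48 and 97 without a filter, 124 and 67 with only the compared libraries, 0 and 62 with RLE scaling, 0 and 49 without doublets, 0 and 0 without the library set term, and 0 to 50 and 0 to 165 with 1 library left out, the highest of both without Sedentary replicate 2. The numbers of nuclei limit what was fitted, since Old replicate 2 held 84 slow-like nuclei and Running replicate 1 held 7.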

Other observations

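Immediate early genes, mostly genes of transcription factors such as Fos, Jun and Egr1 that respond within minutes to handling and exercise, were followed beside the members. Their 22 genes summed to 429 to 989 CPM, with 642 in Old and 598 in Young of the 10x libraries and 514 and 429 in the second set. Running had 545 and 989 and Sedentary 453 and 698 in the 10x libraries and the second set. None of the 22 was called, 16 were estimated above 0 for Old over Young (median 0.18 against 0.19 over all genes) and 15 for Running over Sedentary (median 0.27). The summed level was higher in Running in both sets, but the median over the 22 genes was -0.078 in the 10x libraries and 0.42 in the second set, with 12 of 22 in the same direction in both, and Nr4a1 alone had 283 CPM in Running and 198 in Sedentary of the 10x libraries.

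Red blood cell genes, 4 globin genes, the anion exchanger gene Slc4a1 and the haem synthesis gene Alas2, summed to 75.5 CPM in Old and 117 in Young of the 10x libraries and 225 and 642 in the second set, of which Alas2 was higher in Old of the 10x libraries (39.97 and 14.2). Of these genes 5 were estimated below 0 for Old over Young, with a median of -1.96, and 4 had an unadjusted p under 0.05, but none passed the adjusted threshold in edgeR.

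Among the chaperone lists, 4 of 20 HSP70 co-chaperone genes, 2 of 5 heat shock factor genes and 4 of 7 further HSP70 and HSP110 genes were estimated above 0 for Old over Young, and 2 of 16 endoplasmic reticulum chaperones. For Running over Sedentary the counts were 11 of 20, 3 of 5 and 3 of 7, with 11 of 14 TRiC and prefoldin genes and 5 of 9 mitochondrial chaperones.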
